A study of Mus musculus with 24 samples.

Results

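The genes described here encode 8 adhesion molecules of the vessel wall and of leukocytes: Icam1, Icam2, Vcam1, Sele, Selp, Selplg, Pecam1 and Cdh5. They were chosen by gene symbol, and all 8 were measured, each by 1 Entrez Gene identifier, among 24011 genes with a symbol. The hearts came from C57BL/6J mice that were 8 weeks old. Stroke was modelled by middle cerebral artery occlusion (MCAO), which cuts off blood to part of the brain, and controls had a sham operation. Hearts were taken after 24 h or 72 h, and each of the 4 groups (sham 24 h, MCAO 24 h, sham 72 h, MCAO 72 h) held 6 arrays numbered 1 to 6. The study asked what stroke does to gene expression in the heart. The labels name no transgene, drug or cell sorting, and the RNA was total RNA of heart tissue.

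Adhesion molecules let leukocytes leave the blood. The selectins on endothelium (the cells that line vessels) and on platelets catch leukocytes through sugars carried by ligands such as PSGL-1 and let them roll. ICAM-1, ICAM-2 and VCAM-1, of the immunoglobulin superfamily, then hold them through integrins. PECAM-1 and VE-cadherin sit at the junctions between endothelial cells, which leukocytes cross. Sele, Vcam1 and Icam1 are known for strong induction by inflammatory cytokines acting through NF-kB, whereas Icam2, Pecam1 and Cdh5 are made by resting endothelium.

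Values are on the deposited log2 scale. A gene is called where limma's Benjamini-Hochberg adjusted p over all 24011 genes was under 0.05. Each 95% interval comes from limma's moderated standard error (SE) and covers 1 gene with no correction for the number of genes. Arrays correlated with the mean of the rest of their group, across genes, at 0.971 to 0.997. The lowest values, 0.976 and 0.971, were those of MCAO 24 h replicates 5 and 6. Odorant and pheromone receptor genes, 1348 in number, served as a reference for dim genes: 156 of them (11.6%) were called at 24 h and 1 at 72 h. Nothing in the labels ties 1 array to 1 mouse, so the p-values cover the variation among these arrays, which may be technical, and their number limits the precision. Of 12 cardiomyocyte markers, the mean per array lay between 12.09 and 12.47 in all groups. That of 25 endothelial markers other than the 8 genes lay between 7.31 and 7.64.

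Pecam1 was higher after MCAO at both times, by 1.21-fold at 24 h and 1.22-fold at 72 h, and was the only 1 of the 8 genes called at either. In RNA from heart tissue, more or fewer cells of a type and more or less RNA per cell cannot be told apart. At 24 h that made 1 of 8 genes where 21.8% of all genes were called (11.1% higher, 10.8% lower). At 72 h it was 1 of 8 where 2.35% were called (1.17% higher, 1.19% lower). These shares come from a fit with 1 spread per gene for all 4 groups. With the compared groups fitted alone, 2194 genes were called at 24 h and 1410 at 72 h, in place of 5237 and 565. The median log2 change of the 8 genes was 0.01 at 24 h and -0.10 at 72 h, against 0.01 and 0.00 over all genes. Neither the cytokine-inducible genes Icam1, Vcam1 and Sele nor Selp was called higher. For these 4 genes the upper ends of the 95% intervals lay between 1.01-fold and 1.23-fold at 24 h and between 1.02-fold and 1.28-fold at 72 h. The effect of MCAO was called different between the times for 0 of the 8 genes by limma (lowest adjusted p = 0.277, Sele; 1 of 8 at an unadjusted p under 0.05), where 1.79% of all genes were called (0.991% higher, 0.8% lower at 72 h). Between the sham groups 0 of 8 were called (2 of 8 at an unadjusted p under 0.05), where 0.0208% of all genes were called (0.00833% higher, 0.0125% lower at 72 h). Without MCAO 24 h replicates 5 and 6, Pecam1 was again the 1 gene of 8 called at each time.

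**Figure D1:**
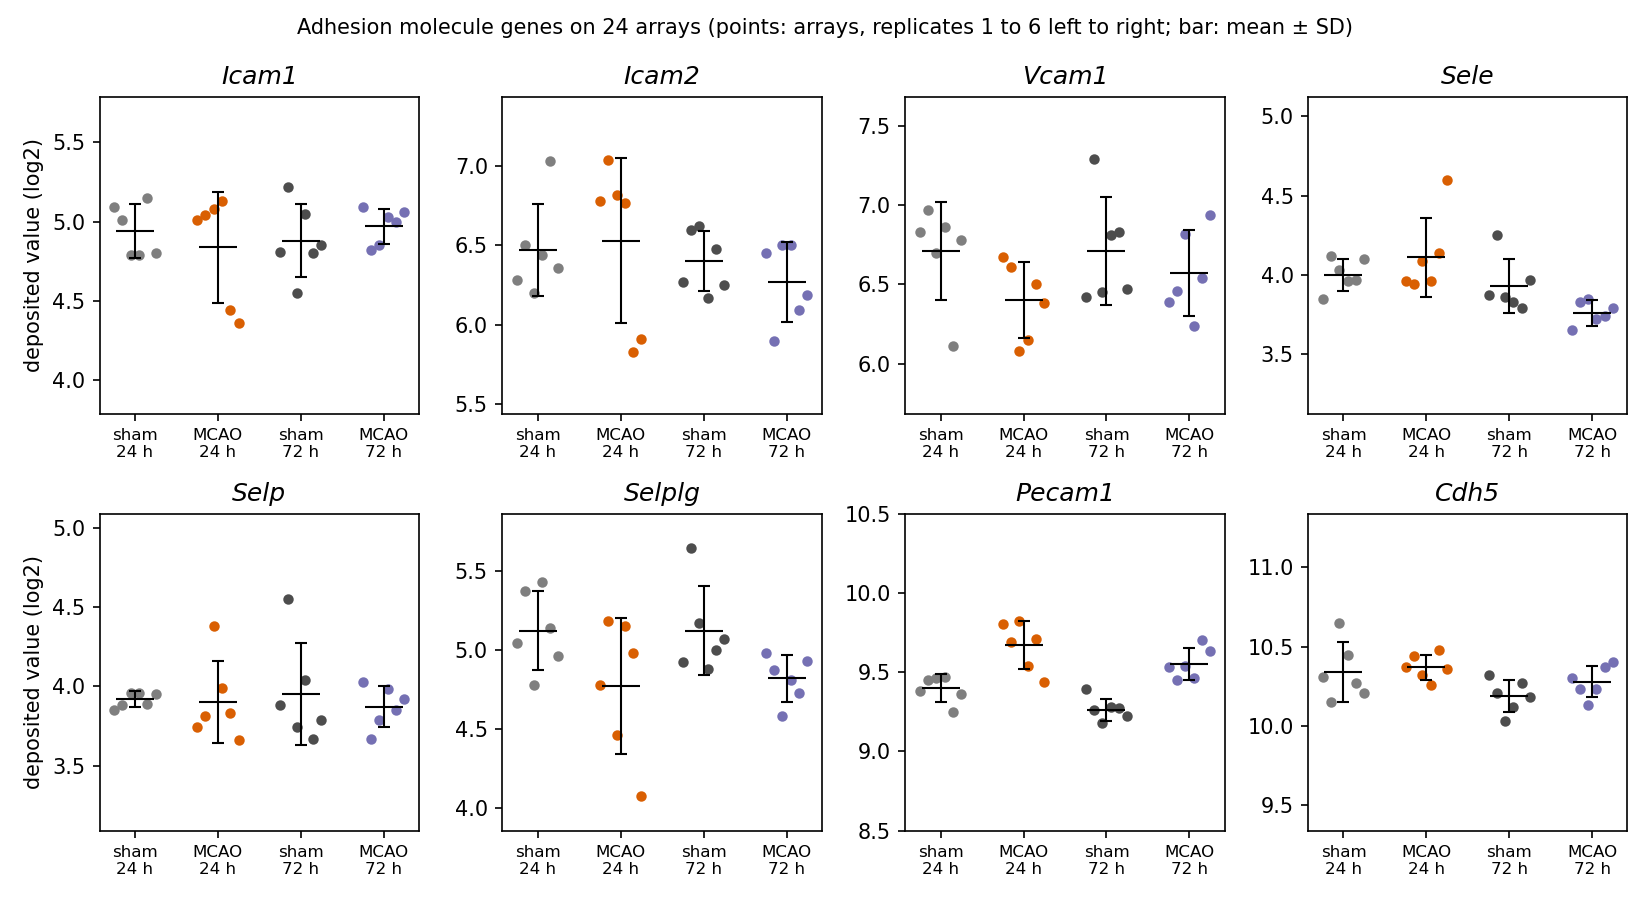
Deposited log2 values of the 8 genes on each array, by group, on axes that each span 2 log2 units; points are arrays in the order of their replicate numbers and bars show mean ± SD (n = 6). Pecam1 on the 6 MCAO 72 h arrays lies at 9.45 to 9.70, above all sham 72 h arrays, whereas the groups overlap for the other genes within each time.

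Pecam1 (Entrez Gene 18613) encodes PECAM-1, or CD31, a homophilic adhesion molecule of endothelial junctions that platelets and many leukocytes carry as well. At 24 h the sham arrays ran from 9.25 to 9.47 with a median of 9.42, and the MCAO arrays from 9.44 to 9.82 with a median of 9.70. Of the 6 MCAO arrays 5 were above every sham array, and replicate 6, at 9.44, was not. The log2 change was 0.27 (SE 0.06, 95% interval 0.14 to 0.40, limma adjusted p = 0.00439).

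At 72 h the sham arrays ran from 9.18 to 9.39 with a median of 9.26 and the MCAO arrays from 9.45 to 9.70 with a median of 9.53, so the groups did not overlap. The log2 change in Pecam1 was 0.29 (SE 0.06, 95% interval 0.15 to 0.42, limma adjusted p = 0.0128). The effects at the 2 times differed by 0.01 (95% interval -0.17 to 0.20, limma adjusted p = 0.952). The means fell in the order MCAO 24 h (9.67 ± 0.15, SD, n = 6), MCAO 72 h (9.55 ± 0.10), sham 24 h (9.40 ± 0.09) and sham 72 h (9.26 ± 0.07). Neither the step between the MCAO groups (-0.12, adjusted p = 0.242) nor that between the sham groups (-0.13, adjusted p = 1) was called by limma, although all 6 sham 72 h arrays were below the sham 24 h mean. The 24 fits that each left out 1 array kept the call of Pecam1, with log2 changes of 0.24 to 0.32 at 24 h and 0.26 to 0.31 at 72 h (highest limma adjusted p = 0.0132 and 0.0465). When the 24 h groups were fitted alone, the 24 h call was kept with a limma adjusted p of 0.0462, close to the threshold.

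Cdh5 (Entrez Gene 12562) encodes VE-cadherin, the main cadherin of endothelial adherens junctions. Its 24 h values were 10.15 to 10.65 (median 10.29) after the sham operation and 10.26 to 10.48 (median 10.36) after MCAO, so that the MCAO arrays lay within the sham range. At 72 h they were 10.03 to 10.32 (median 10.19) and 10.13 to 10.40 (median 10.26), with 2 MCAO arrays above all sham arrays. The log2 changes were 0.03 (95% interval -0.12 to 0.18, adjusted p = 0.8) and 0.09 (-0.06 to 0.24, adjusted p = 0.862), both by limma. The 4 group means of Cdh5 spanned 10.19 to 10.37, in the order MCAO 24 h, sham 24 h, MCAO 72 h and sham 72 h. Each step between neighbours was smaller than the larger SD of the 2 groups it joins, the closest being 0.09 between the 72 h groups, whose SDs were both 0.10.

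**Figure D2:**
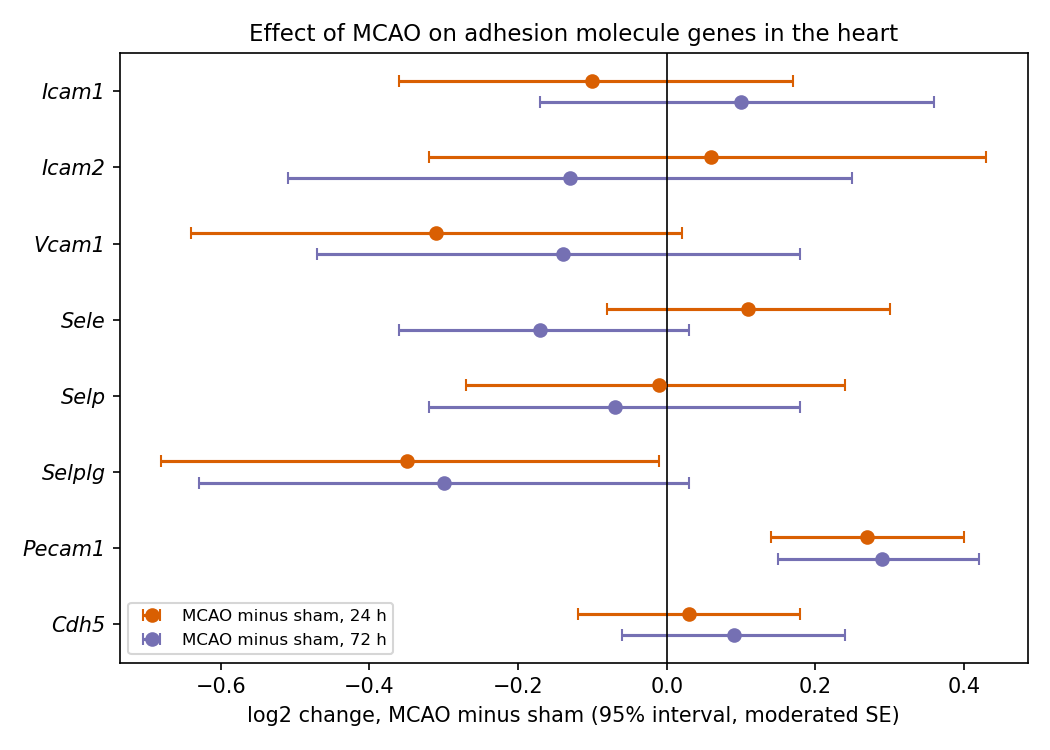
Log2 change, MCAO minus sham, of the 8 genes at 24 h and 72 h with 95% intervals from limma's moderated SE (n = 6 arrays per group). The intervals of Pecam1, 0.14 to 0.40 and 0.15 to 0.42, lie above 0 at both times, and those of Icam1, Icam2, Vcam1, Sele, Selp and Cdh5 include 0. That of Selplg lies below 0 at 24 h (-0.68 to -0.01) and includes 0 at 72 h (-0.63 to 0.03), and Selplg was not called at either time.

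Pecam1 was also read against the other endothelial genes on the same array. The mean of 25 endothelial markers per array was 7.37 to 7.54 in sham 24 h and 7.39 to 7.64 in MCAO 24 h, then 7.31 to 7.45 in sham 72 h and 7.41 to 7.48 in MCAO 72 h. Pecam1 minus this mean was computed after Pecam1 was seen to be called. It holds the change in Pecam1 itself (0.27 at 24 h and 0.29 at 72 h) and is given as a description with no test. It was 1.95 ± 0.11 in sham 24 h and 2.14 ± 0.08 in MCAO 24 h (log2, SD, n = 6), and 4 of 6 MCAO arrays were above every sham array. At 72 h it was 1.88 ± 0.08 and 2.10 ± 0.10, with 6 of 6 MCAO arrays above every sham array. With the median of the markers in place of their mean, the differences between the groups were 0.13 at 24 h and 0.23 at 72 h, against 0.19 and 0.23.

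**Figure D3:**
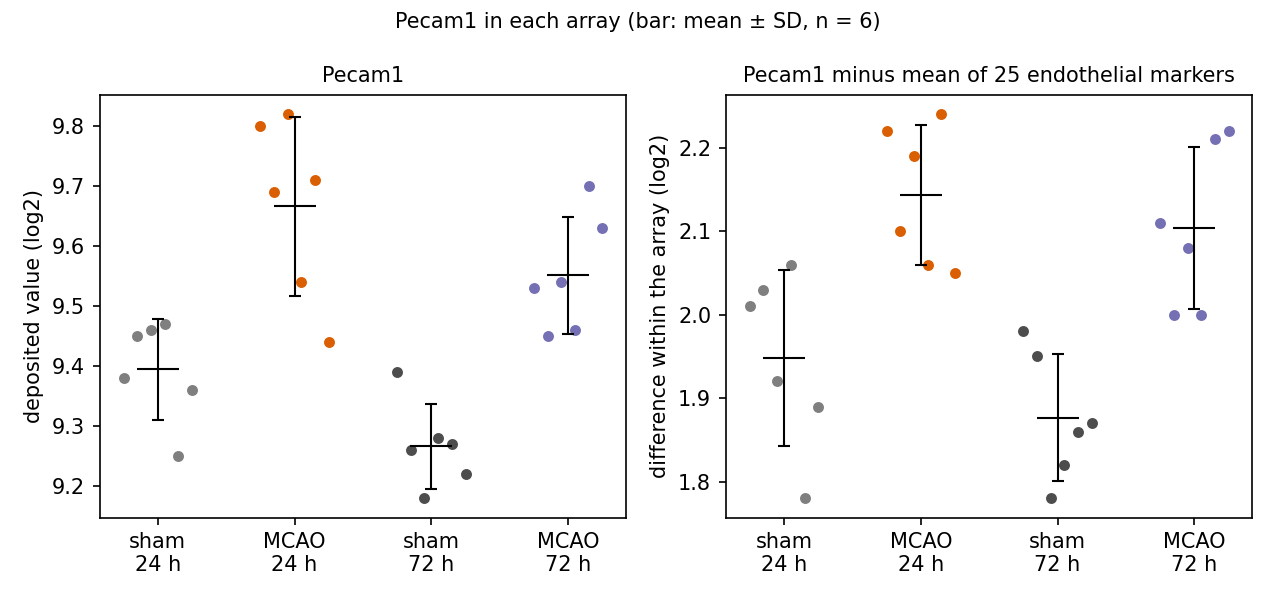
Pecam1 on each array (left, log2) and Pecam1 minus the mean of 25 endothelial markers on the same array (right, log2), with mean ± SD (n = 6 per group). At 72 h the 6 MCAO arrays lie above the 6 sham arrays in both panels; at 24 h 5 of 6 do on the left and 4 of 6 on the right.

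The endothelial markers themselves moved both ways. At 24 h 5 of 25 rose and 1 fell, and at 72 h 2 rose and 1 fell (24% and 12%, where 21.8% and 2.35% of all genes were called). Their median log2 change was 0.02 and 0.06. The 72 h count was 5 higher and 4 lower with array weights, 5 and 3 with the compared groups alone, and 4 and 1 when MCAO 24 h replicates 5 and 6 were left out. Of all 24011 genes, these 3 settings called 1905, 1410 and 1103 at 72 h, where the fit reported called 565. At 24 h they called 3259, 2194 and 5856, where the fit reported called 5237. List counts under these settings, here and below, are to be read against these numbers. Sox17, a transcription factor of arterial endothelium, rose by 0.83 (SE 0.10) and 0.43 (SE 0.10) at the 2 times. Rgcc, a cell cycle regulator also called response gene to complement 32, rose by 0.94 (SE 0.13) and 0.68 (SE 0.13). Kdr, the main VEGF receptor of endothelium, changed by -0.88 (SE 0.12) and -0.68 (SE 0.12), against the direction of Pecam1. Tie1, an endothelial receptor tyrosine kinase, and Ly6c1 were called higher at 24 h, with 0.46 (SE 0.10) and 1.03 (SE 0.18), and not at 72 h, with 0.11 and 0.45. Their effects were not called different between the times by limma (adjusted p = 0.162 and 0.229). Ly6c1 and the monocyte gene Ly6c2 (0.99, SE 0.18) have nearly the same sequence, so their probes may not tell them apart. The brightest marker, the fatty acid carrier gene Fabp4, was at 0.21 (SE 0.13) and -0.10 (SE 0.13) and was not called. The call of Sox17 at 72 h was lost without MCAO 72 h replicate 2 (limma adjusted p = 0.0511).

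**Figure D4:**
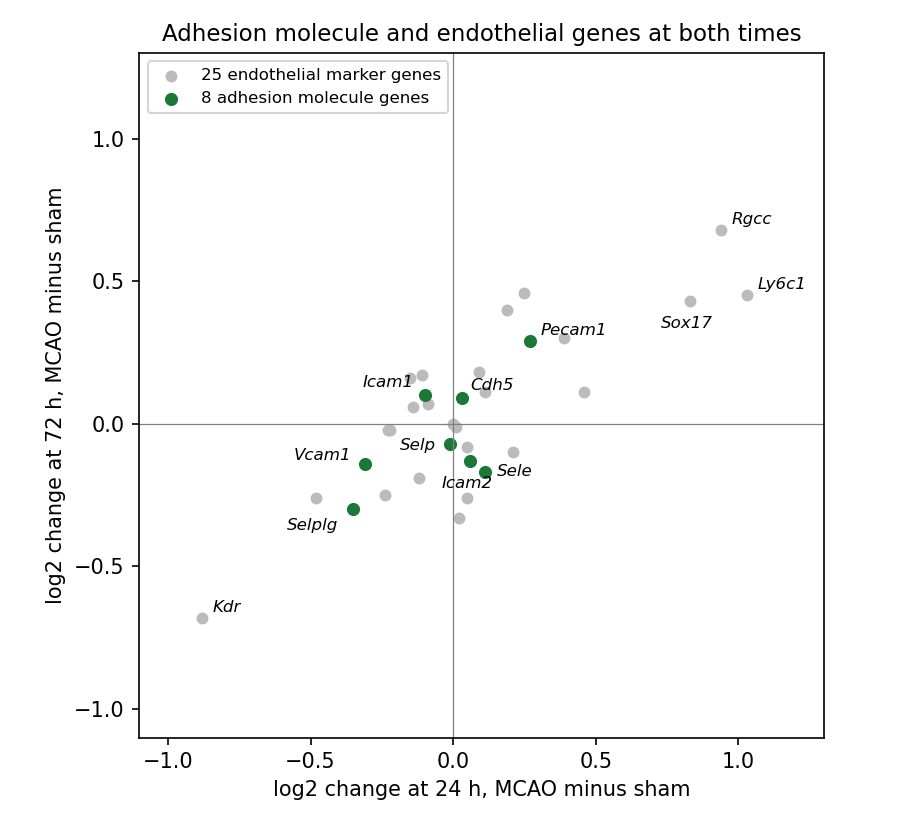
Log2 change, MCAO minus sham, at 24 h (horizontal) and 72 h (vertical) for the 8 adhesion molecule genes (green) and 25 endothelial markers (grey); each point is 1 gene and the 2 axes share no arrays. Pecam1 sits at 0.27 and 0.29, Rgcc at 0.94 and 0.68, Kdr at -0.88 and -0.68, and the other 7 adhesion genes lie between -0.35 and 0.11 on both axes.

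Genes that work with VE-cadherin were followed as a list of 10. At 24 h 2 rose and 3 fell, and at 72 h 1 fell (50% and 10%, where 21.8% and 2.35% of all genes were called), with medians of -0.06 and 0.02. The 24 h count was 1 higher and 1 lower with array weights and with the compared groups alone. At 72 h it was 2 higher and 1 lower under both of these and when MCAO 24 h replicates 5 and 6 were left out. Ptpn11, the phosphatase SHP2 that binds the cytoplasmic tail of PECAM-1, rose by 0.60 (SE 0.07, limma adjusted p = 9.67e-06) at 24 h. The catenin gene Ctnna1, which links cadherins to actin, changed by -0.28 (SE 0.08), a call lost with array weights and with the 24 h groups alone. Kdr, which also belongs to this list, was the 1 gene lower at 72 h. Jup, the plakoglobin gene, was at 0.13 (SE 0.08) and 0.27 (SE 0.08) and was not called. Ptprb and Afdn were also called at 24 h, and each lost its call in 5 of 9 alternative settings.

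Of 17 other junction and immunoglobulin adhesion genes 1 rose and 4 fell at 24 h (29.4%, where 21.8% of all genes were called), and 0 were called at 72 h by limma (4 of 17 at an unadjusted p under 0.05). At 72 h 1 rose and 2 fell in the fit of the compared groups alone and without MCAO 24 h replicates 5 and 6, and 2 rose and 2 fell with array weights. The junctional adhesion molecules Jam2 (-0.37, SE 0.09) and Jam3 (-0.34, SE 0.09) were lower at 24 h, as were T-cadherin, Cdh13 (-0.36, SE 0.09), and N-cadherin, Cdh2 (-0.24, SE 0.06), which was at 0.17 at 72 h, a difference between the times that limma called (0.41, SE 0.08, adjusted p = 0.0121). Jam3 lost its call with the 24 h groups alone (limma adjusted p = 0.0667) and Cdh13 with array weights (0.0505). Esam was the 1 gene called higher (0.39, SE 0.14, limma adjusted p = 0.0461), and 18 of 24 fits that left out 1 array lost it. Icam4 and Icam5, which lie next to Icam1 in the RefSeq gene order, were at -0.05 and 0.02 at 24 h and at -0.09 and 0.01 at 72 h.

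The promoters of Icam1, Sele and Selp are shown because they belong to genes known to answer cytokines, and because these 3 of the 8 genes had an entry in the RefSeq promoter table used (GRCm38.p6). Icam2, Vcam1, Selplg, Pecam1 and Cdh5 had none. Each line holds the 250 bases before the annotated start on the plus strand, at chr9:21015690-21015939 for Icam1, chr1:164047984-164048233 for Sele and chr1:164115014-164115263 for Selp. Capitals mark GGNNNTTCC, a loose NF-kB-like pattern, on either strand, and TATAAA, the TATA box, on either strand.
Icam1: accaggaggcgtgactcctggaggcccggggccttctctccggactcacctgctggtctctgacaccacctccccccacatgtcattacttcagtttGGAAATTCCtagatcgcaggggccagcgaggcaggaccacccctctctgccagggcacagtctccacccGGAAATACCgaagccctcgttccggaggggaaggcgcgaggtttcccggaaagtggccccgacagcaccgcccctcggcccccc
Sele: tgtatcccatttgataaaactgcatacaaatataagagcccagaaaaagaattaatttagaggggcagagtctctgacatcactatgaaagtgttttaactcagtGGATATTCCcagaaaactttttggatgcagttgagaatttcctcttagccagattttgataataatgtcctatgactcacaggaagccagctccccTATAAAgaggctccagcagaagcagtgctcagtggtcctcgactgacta
Selp: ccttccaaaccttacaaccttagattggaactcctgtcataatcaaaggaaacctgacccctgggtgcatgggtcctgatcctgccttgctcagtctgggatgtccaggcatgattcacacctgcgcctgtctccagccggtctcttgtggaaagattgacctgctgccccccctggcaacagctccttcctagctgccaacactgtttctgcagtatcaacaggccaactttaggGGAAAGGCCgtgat

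The NF-kB-like pattern began at -153 and -84 in Icam1, at -145 in Sele and at -14 in Selp, counted from the annotated start. The table held 32851 promoters, of which 15.7% had it in the same window, so it is common. TATAAA was found in the Sele window, at -49, and in 12.4% of all promoters. The AP-1 pattern TGANTCA was found in the windows of Sele and Selp, and in 6.75% of all. ACANNNTGT, a loose form of the steroid receptor element, was in 5.84% of all promoters and in none of the 3 windows. The patterns were picked after the sequences were seen, no matches in these windows overlapped, and a match is a description of letters only.

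Sele (Entrez Gene 20339) encodes E-selectin, which endothelium makes when activated and which lets leukocytes roll. At 24 h the sham arrays held 3.85 to 4.12 (median 4.00) and the MCAO arrays 3.94 to 4.60 (median 4.03). Replicate 6 of MCAO 24 h, at 4.60, stood above the next array at 4.14, and the groups overlapped. At 72 h the sham arrays held 3.79 to 4.25 (median 3.86) and the MCAO arrays 3.65 to 3.85 (median 3.76), with 3 MCAO arrays below all sham arrays. By limma, the changes on the log2 scale were 0.11 (95% interval -0.08 to 0.30, adjusted p = 0.427) and -0.17 (-0.36 to 0.03, adjusted p = 0.606).

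Sele was lower in MCAO 72 h than in MCAO 24 h, by -0.35 (SE 0.09, limma adjusted p = 0.0192), and the 6 arrays of each group did not overlap. In that contrast 1 of 8 genes was called, where 10.4% of all genes were (5.04% higher, 5.36% lower). The call was lost when only these 2 groups were fitted (adjusted p = 0.0768), without MCAO 24 h replicates 5 and 6 (adjusted p = 0.0528) and with array weights (adjusted p = 0.0734), all by limma. The corresponding step between the sham groups was -0.08 (95% interval -0.27 to 0.12). Sele was a dim gene, with a mean of 3.95 over all arrays where the median gene lay at 4.15. Even so, 95% of the odorant and pheromone receptor genes had a lower mean. No background signal was analysed here, so a level as low as this can be given no detection limit, and brightness differs between probes.

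Selp (Entrez Gene 20344) encodes P-selectin, which platelets and endothelium hold in storage granules and bring to the surface on activation without new RNA. Values at 24 h were 3.85 to 3.96 (median 3.92) in sham arrays and 3.66 to 4.38 (median 3.82) in MCAO arrays, which lay on both sides of the sham range: 2 above it and 4 below it. The SD was 0.05 in sham 24 h and 0.26 in MCAO 24 h. At 72 h the values were 3.67 to 4.55 (median 3.84) and 3.67 to 4.03 (median 3.89), with sham replicate 2 the highest, and the groups overlapped. The log2 changes were -0.01 (95% interval -0.27 to 0.24, adjusted p = 0.949) and -0.07 (-0.32 to 0.18, adjusted p = 1) by limma. Like Sele, Selp was dim, with a mean of 3.91 over all arrays, below the median gene at 4.15 but above 94.7% of these receptor genes. The mean of 10 platelet and megakaryocyte markers per array lay between 3.89 and 4.20 over all groups. At 24 h 1 rose and 1 fell (20%, where 21.8% of all genes were called), but 0 were called with array weights and 1, lower, with the 24 h groups alone. At 72 h 0 were called by limma (1 of 10 at an unadjusted p under 0.05), as under the 9 alternative settings.

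Selplg (Entrez Gene 20345) encodes PSGL-1, the main selectin ligand on leukocytes. Its 24 h values were 4.78 to 5.43 (median 5.09) after the sham operation and 4.08 to 5.18 (median 4.88) after MCAO, and 2 MCAO arrays were below all sham arrays. At 72 h they were 4.88 to 5.64 (median 5.04) and 4.58 to 4.98 (median 4.84). All 6 MCAO 72 h arrays were below the sham mean and 4 were below every sham array, so the groups overlapped at both times. The log2 changes were -0.35 (SE 0.16, 95% interval -0.68 to -0.01, adjusted p = 0.127) and -0.30 (SE 0.16, -0.63 to 0.03, adjusted p = 0.565), neither called by limma.

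Leukocyte markers are given beside Selplg because leukocytes carry it. Of 22 markers 5 fell and 2 rose at 24 h (31.8%, where 21.8% of all genes were called), and 0 were called at 72 h by limma (5 of 22, all lower, at an unadjusted p under 0.05). At 72 h 1 was called lower without MCAO 24 h replicates 5 and 6 and 2 with array weights, and at 24 h the weights left 2 lower and 1 higher. Their median log2 change was -0.13 and -0.10. The mean of the list per array was 5.03 to 5.37 in sham 24 h and 4.86 to 5.10 in MCAO 24 h, then 5.05 to 5.69 in sham 72 h and 4.94 to 5.15 in MCAO 72 h. The 2 called higher at 24 h were Ly6c2 (0.99, SE 0.18), which had the smallest p of the list, and Ms4a1 (0.20, SE 0.07). Ms4a1 lost its call in 6 of 24 fits without 1 array. The leukocyte actin-bundling gene Lcp1 changed by -1.29 (SE 0.25) and the tetraspanin gene Cd53 by -0.82 (SE 0.17) at 24 h. Laptm5, the brightest of the list, was at -0.21 (SE 0.16). The pan-leukocyte gene Ptprc was at 0.10 (SE 0.17) and -0.53 (SE 0.17) and was not called. The part of leukocyte content in the values of Selplg was not tested.

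Neutrophils roll on selectins first, and 2 of 12 neutrophil markers, Retnlg (0.64, SE 0.13) and Mmp8 (0.28, SE 0.08), were called higher at 24 h (16.7%, where 21.8% of all genes were called). Both genes were dim, with group means of 3.42 to 4.06 for Retnlg and 3.45 to 3.73 for Mmp8. Of the 12 markers 0 lay above the median level of all genes, and 11.6% of the odorant and pheromone receptor genes were called at 24 h. Mmp8 lost its call with array weights and with the 24 h groups alone (highest limma adjusted p = 0.0886). None fell, and 0 were called at 72 h by limma (0 at an unadjusted p under 0.05), with the mean of the list between 3.58 and 3.92 on all arrays. Without MCAO 24 h replicates 5 and 6 the 24 h count became 2 higher and 2 lower. Of 12 genes that build selectin ligands 1 rose and 1 fell at 24 h (16.7%, where 21.8% of all genes were called) and 0 were called at 72 h by limma (3 of 12 at an unadjusted p under 0.05), or 1 higher and 2 lower with array weights. Slc35c1, the GDP-fucose transporter of the Golgi, rose by 0.43 (SE 0.11) and Tpst1, which sulfates tyrosines such as those of PSGL-1, changed by -0.48 (SE 0.13). Slc35c1 lost its call with array weights and when the 24 h groups were fitted alone (highest limma adjusted p = 0.121). The fucosyltransferase gene Fut7 was at -0.16 (SE 0.11) and -0.01 (SE 0.11).

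Icam1 (Entrez Gene 15894) encodes ICAM-1, the endothelial ligand of the leukocyte integrins LFA-1 and Mac-1. At 24 h the sham arrays held 4.79 to 5.15 (median 4.91). The MCAO arrays held 4.36 to 5.13 (median 5.03): replicates 5 and 6, at 4.44 and 4.36, were below every sham array, and the other 4 lay at 5.01 to 5.13. At 72 h the ranges were 4.55 to 5.22 (median 4.83) and 4.82 to 5.09 (median 5.01), so that the MCAO arrays lay within the sham range. Its log2 changes were -0.10 (95% interval -0.36 to 0.17, adjusted p = 0.628) and 0.10 (-0.17 to 0.36, adjusted p = 0.988), both by limma. Without MCAO 24 h replicates 5 and 6 the 24 h change turned to 0.13 and was not called (limma adjusted p = 0.384).

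Icam2 (Entrez Gene 15896) encodes ICAM-2, a second LFA-1 ligand present on resting endothelium and platelets. Its 24 h values were 6.20 to 7.03 (median 6.40) in sham arrays and 5.83 to 7.04 (median 6.78) in MCAO arrays. MCAO replicates 5 and 6 were again the lowest, at 5.83 and 5.91, below every sham array, and the other 4 lay at 6.77 to 7.04. Values at 72 h were 6.17 to 6.62 (median 6.38) and 5.90 to 6.50 (median 6.32), which overlap. The log2 changes were 0.06 (95% interval -0.32 to 0.43, adjusted p = 0.859) and -0.13 (-0.51 to 0.25, adjusted p = 0.993), both by limma. Without MCAO 24 h replicates 5 and 6 the 24 h change of Icam2 was 0.38 (limma adjusted p = 0.0526), and the step from MCAO 24 h to MCAO 72 h became -0.58 and was called (limma adjusted p = 0.011).

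Vcam1 (Entrez Gene 22329) encodes VCAM-1, which binds the integrin VLA-4 of monocytes and lymphocytes. At 24 h the sham arrays held 6.11 to 6.97 (median 6.81) and the MCAO arrays 6.08 to 6.67 (median 6.44). All 6 MCAO arrays were below the sham mean of 6.71, and sham replicate 5, at 6.11, stood apart from the other sham arrays, the next of which was at 6.70. Values at 72 h were 6.42 to 7.29 (median 6.64) and 6.24 to 6.94 (median 6.50), and the groups overlapped at both times. The log2 changes were -0.31 (SE 0.16, 95% interval -0.64 to 0.02, adjusted p = 0.165) and -0.14 (SE 0.16, -0.47 to 0.18, adjusted p = 0.951), both by limma. Without sham 24 h replicate 5 the 24 h change was -0.43 and was called lower (limma adjusted p = 0.0442), the 1 of 24 fits without 1 array to do so.

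Leukocyte integrins were listed together with selectin counter-receptors, which include sialomucins and addressins of the vessel side (Cd34, Podxl, Madcam1, Glycam1), as 19 genes of which 18 were measured. At 24 h 0 rose and 3 fell, and at 72 h 0 rose and 2 fell (16.7% and 11.1%, where 21.8% and 2.35% of all genes were called). Itga9, an integrin chain that can bind VCAM-1, changed by -0.55 (SE 0.11) and -0.52 (SE 0.11), and Cd34, a sialomucin of endothelium and progenitor cells, by -0.44 (SE 0.11) and -0.56 (SE 0.11). Ezr, which encodes ezrin, a linker of membrane proteins to actin, was at -0.69 (SE 0.23) at 24 h. Its call was lost in 3 of 24 fits without 1 array, with array weights and with the 24 h groups alone (highest limma adjusted p = 0.14). Itgb1, the shared beta chain of VLA-4, was at 0.05 (SE 0.09) and 0.10 (SE 0.09). The 24 h count was 1 higher and 5 lower without MCAO 24 h replicates 5 and 6, and 0 higher and 1 lower with the 24 h groups alone. The other chains of LFA-1, Mac-1 and VLA-4 were not called: Itgal was at 0.01 and -0.03, Itgam at 0.45 and -0.15, Itgb2 at -0.30 and -0.17 and Itga4 at -0.09 and -0.13 at 24 h and 72 h.

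The list for endothelium activated through NF-kB had 21 measured members. It holds NF-kB subunit genes such as Rela, and the receptor gene Ackr1, beside genes that cytokines raise. At 24 h 1 rose and 3 fell, and at 72 h 1 rose and 1 fell (19% and 9.52%, where 21.8% and 2.35% of all genes were called). With the compared groups alone the counts were 0 higher and 1 lower, then 2 higher and 0 lower. The chemokine gene Ccl2 was at -0.35 (SE 0.17) and -0.11 (SE 0.17), Cxcl1 at -0.00 and -0.03 and Il6 at -0.06 and -0.04, and none of these was called. Cxcl1 and Il6 were dim, with group means of 3.76 to 3.85 and 3.12 to 3.18 where the median gene lay at 4.15. What dimness limits for them was not tested. Tnfaip2, a TNF-induced gene, changed by -0.95 (SE 0.15) and -0.58 (SE 0.15). Its 72 h call was lost in 12 of 24 fits that left out 1 array. Lower at 24 h were also Ccl5 (-0.25, SE 0.07) and Csf3 (-0.33, SE 0.11). Ccl5 lost its call with the 24 h groups alone (limma adjusted p = 0.0777), and Csf3 in 5 of 24 fits without 1 array and in 4 of 9 other settings (highest limma adjusted p = 0.167). Ackr1, the venular chemokine receptor gene, was the 1 called higher (0.23, SE 0.08), a call lost in 17 of 24 fits without 1 array. Rela, which encodes the p65 subunit of NF-kB, was at 0.15 (SE 0.07) and -0.03 (SE 0.07) and was not called. Nfkbia, the NF-kB inhibitor that glucocorticoids also induce, rose by 0.70 (SE 0.16, limma adjusted p = 0.0143) at 72 h and was at 0.42 (SE 0.16, adjusted p = 0.0597) at 24 h.

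Glucocorticoids are known to hold down cytokine induction of Sele, Icam1 and Vcam1, so their response genes were read on the same arrays. Of 12 genes 9 rose at 24 h and 8 at 72 h, where 11.1% and 1.17% of all genes were called higher, and 0 fell, with median log2 changes of 0.92 and 0.65. Fkbp5, a co-chaperone of the glucocorticoid receptor, rose by 3.27 (SE 0.32) and 2.25 (SE 0.32). Per1, a clock gene, rose by 1.59 (SE 0.22) and 0.94 (SE 0.22), the 72 h call being lost in 3 of 24 fits without 1 array (MCAO replicate 2, sham replicates 3 and 5 of 72 h; highest limma adjusted p = 0.061), and the metallothionein gene Mt1 by 0.66 (SE 0.10) and 0.47 (SE 0.10). The mean of the list per array was 7.41 to 7.78 in sham 24 h and 8.45 to 8.85 in MCAO 24 h, and 7.49 to 8.07 in sham 72 h and 8.29 to 8.67 in MCAO 72 h, so the groups did not overlap at either time. The list was chosen with results on it known, and its part in the values of the adhesion genes was not tested.

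The 8 genes did not vary as a unit from array to array. After the group means were removed, the 28 pairwise correlations over 24 arrays ran from -0.415 to 0.662. They share arrays and are given as a description. Icam1 and Icam2 correlated at 0.662, but at 0.238 without MCAO 24 h replicates 5 and 6. Pecam1 and Cdh5 correlated at 0.445, and at 0.524 without those arrays. Without sham 72 h replicate 2 the lowest correlation was that of Icam1 with Sele, -0.688 in place of -0.384. Next was that of Sele with Selplg, -0.626 in place of -0.278. Both pairs turned positive, to 0.188 and 0.229, when MCAO 24 h replicates 5 and 6 were left out instead. Icam1 and Selp correlated at 0.582, and at 0.491 without sham 72 h replicate 2. Sham 72 h replicate 2 had the highest value of its group for 5 of the 8 genes, Icam1, Vcam1, Sele, Selp and Selplg.

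Genes whose values over the 24 arrays were most like each of the 8 were looked up among 20514 genes with a full symbol, as a description with no test. Pecam1 ran closest to Adipor2 (Pearson r = 0.907, Spearman rho = 0.923), an adiponectin receptor gene, to Vdr, the vitamin D receptor gene (r = 0.883, rho = 0.794), and to Zfp809 (r = 0.874, rho = 0.869). Within groups these fell to 0.745, 0.733 and 0.722. Vcam1 ran closest to the macrophage gene Adgre1 (r = 0.840, rho = 0.824), to Csrp1 (r = 0.833, rho = 0.700) and to the matrix gene Postn (r = 0.820, rho = 0.790), and within groups at 0.810, 0.838 and 0.822. The nearest gene was Psma3 for Icam1 (r = 0.802, rho = 0.631), Hykk for Selplg (r = 0.797, rho = 0.696) and Cit for Sele (r = 0.783, rho = 0.596). For Cdh5 it was Galnt7 (r = 0.767, rho = 0.761), for Icam2 Chst10 (r = 0.763, rho = 0.693) and for Selp Usp18 (r = 0.745, rho = 0.363). The odorant receptor gene Olfr1175 (r = 0.787) came next for Icam1, and the pheromone receptor gene Vmn1r180 (r = 0.769) was also among the 3 nearest to Sele. None of the other 7 genes was among the 3 nearest to any of the 8.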

How the data were processed

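RNA from hearts, isolated with Trizol, was made into biotinylated cRNA and hybridised to Affymetrix arrays, per the labels' protocols. The authors deposited log2 values for 24973 identifiers on 24 arrays. The log2 scale, and quantile normalization before deposit, were inferred here: 23 columns held the same sorted values. How probes were summarised is not given in the sources used here, nor is a build. HOMER appears in the submitters' processing notes, with no role. Of the identifiers 24015 had 1 symbol, 0 had several and 958 were unnamed here, and the brightest was kept for 4 symbols with several. The description of the 72 h samples names 24 h, and titles and time labels were followed.

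All genes were fitted with limma 3.58.1 in R 4.3.3 (4 group means, 24 arrays, 20 residual degrees of freedom, Benjamini-Hochberg at 0.05). On simulated data with 24011 genes the fit found 71% of simulated log2 shifts of 0.5 and 98% of shifts of 1 at 24 h (6.63% of calls false), and 69% and 99% at 72 h (7.18% false). The simulation shifted 100 genes by each size and drew independent noise with the same spread per gene in all 4 groups. The data had unequal spread (median residual SD 0.192 at 24 h and 0.116 at 72 h). These shares therefore do not measure power or false calls in the data. The members, the 14 other lists (204 genes, 197 measured) and the tests were chosen with earlier results of these data known. The rule for named genes took all members, up to 4 called genes of each list with the smallest p, its brightest gene and the 3 most similar genes per member, of which the text gives the main ones. Ptprb, Esam, Tie1, Icam4, Icam5, Ptprc, Ms4a1, Fut7, Itgal, Itgam, Itgb2, Itga4, Ccl2, Cxcl1 and Il6 were added after their values were seen. The 9 other settings changed the variance prior, the normalization, the centring, the filter on dim genes, the weights of arrays, the groups fitted, the block, the choice among identifiers or left out MCAO 24 h replicates 5 and 6, and 24 further fits left out 1 array each. Background correction could not be varied.

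Further lists are read against 21.8% of all genes called at 24 h and 2.35% at 72 h in the fit reported. Of all 24011 genes, 1905 were called at 72 h with array weights and 1410 with the compared groups alone. With the block 519 were called at 72 h, and without MCAO 24 h replicates 5 and 6 1103. At 24 h array weights gave 3259 and the compared groups alone 2194. Of 12 fibroblast markers 5 fell and 0 rose at 24 h (41.7%), and 2 fell and 1 rose at 72 h (25%), or 5 and 2 with array weights and 4 and 2 with the compared groups alone. Of 12 smooth muscle and pericyte markers 3 fell and 1 rose (33.3%), then 0 fell and 1 rose (8.33%), or 2 and 1 with array weights, with the block or without MCAO 24 h replicates 5 and 6. Of 12 cardiomyocyte markers 3 fell (25%), then 1 (8.33%), and 0 rose. With array weights 0 fell at 24 h and 4 at 72 h, and with the compared groups alone 0 and 3. Of 6 epicardial markers 1 rose and 1 fell (33.3%), or 0 of either with the compared groups alone, and at 72 h 0 were called by limma (0 at an unadjusted p under 0.05).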

Additional observations from a re-analysis of the deposited data

Results flagged for a closer look

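Among the 32 groups of 6 arrays formed by the 8 genes and 4 conditions, 3 held an array whose gap to its neighbour passed Dixon's test. Chance flags about 1 in 20 groups. Replicate 5 of sham 24 h had the highest Icam2 of its group, 7.03 where the next array was at 6.50. The same array had the lowest Vcam1, 6.11 where the next was at 6.70. Replicate 6 of MCAO 24 h had the highest Sele, 4.60 where the next was at 4.14. Without sham 24 h replicate 5, Vcam1 was called lower at 24 h (limma adjusted p = 0.0442).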

How the results depend on the processing

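Of 1302 alternative values for the 8 genes over the 5 contrasts, 1297 kept their side of the threshold, 2 gained a call (Vcam1 at 24 h, Icam2 between the MCAO groups) and 3 lost one (Sele between the MCAO groups). Pecam1 stayed called at both times in the 24 fits without 1 array and the 9 other settings. Over these 9 settings its highest limma adjusted p was 0.0462 at 24 h and 0.0397 at 72 h. No called value changed sign, but 53 values that were not called did, in 19 of 40 results, none of them over 0.19 in size in the fit reported. For Pecam1 minus the endothelial markers, which is a description, the median of the markers gave 0.13 at 24 h in place of 0.19.

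The number of genes called at 24 h, 5237, became 3438 among genes above the median level, 3259 with array weights and 2194 with the compared groups alone. At 72 h 565 became 1905 with array weights, 1410 with the compared groups alone and 1103 without MCAO 24 h replicates 5 and 6. For the difference between the times 430 became 218 above the median level and 1079 without MCAO 24 h replicates 5 and 6. Between the sham groups 5 became 27 with array weights and 1 with the compared groups alone. Between the MCAO groups 2496 became 1271 above the median level, 1408 with array weights and 848 with the compared groups alone. The causes were not tested. Leaving out 1 array gave 4234 to 5867, 393 to 821, 197 to 1012, 1 to 6 and 1615 to 3455 in the same order.

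The labels number arrays 1 to 6 in each group. Deviations of same-numbered arrays of the same time correlated across genes at -0.0533 to 0.00678 at 24 h and at -0.0695 to 0.141 at 72 h. Little broad likeness was thus seen, and whether they share a factor that acts on part of the genes was not tested. With the replicate number as a block 4938, 519, 295, 1 and 2203 genes were called, and no call among the 8 genes changed. No background signal was analysed, so what dimness limits for Sele, Selp and the dim genes of the lists was not tested.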
